A study of Mus musculus with 12 samples.

Results

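The G1 cyclins, the kinases they activate and the inhibitors of these kinases were followed in sorted cerebellar cells through the first postnatal weeks. The set holds 10 genes picked by gene symbol, with no measured value in the rule: the D-type cyclins Ccnd1, Ccnd2 and Ccnd3, the kinases Cdk4 and Cdk6, the E-type cyclins Ccne1 and Ccne2, and the inhibitors Cdkn1a, Cdkn1b and Cdkn2c. The choice was made with earlier results of these data known. All 10 were found among the 24421 entries of the table, and all 10 were among the 15464 genes that passed the filter on low values (at least 10 normalized counts in at least 3 libraries). None of the 10 had a value of 0 in any library.

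D-type cyclins bind CDK4 or CDK6 in G1, and the active kinases phosphorylate the retinoblastoma protein, which releases E2F transcription factors and starts the expression of E-type cyclins and replication genes. The p21 and p27 proteins (Cdkn1a, Cdkn1b) bind cyclin-CDK complexes, whereas p18 (Cdkn2c) binds CDK4 and CDK6 themselves. In the postnatal cerebellum, granule neuron precursors of the external layer and glial and interneuron progenitors of the white matter divide before they leave the cycle, and cyclin D2 is a known cyclin of dividing cerebellar precursors.

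RNA was sequenced from GFP-positive cells that were sorted from Aldh1l1-GFP cerebella, with 3 libraries for each of the postnatal days P1, P7, P14, P28 and 12 in all. Every group carried the same reporter, in which the promoter of the astrocyte gene Aldh1l1 drives GFP, and no treatment set the groups apart, so age is the sole labelled difference. According to the study's methods the mice were of both sexes on a C57/BL6J background. The labels give neither the number of animals behind a library nor whether libraries came from separate animals, so that p-values measure the spread between these libraries, which may be technical. The gate admits any cell with GFP, including progenitors in which the promoter is active.

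Libraries held 6399499 to 14733985 reads on genes. Values are normalized counts, the reads of a gene divided by one size factor per library. The sum of 10 astrocyte markers ranged over 57312 to 73443 normalized counts (P1), 28111 to 52448 (P7), 151398 to 193496 (P14) and 347223 to 405842 (P28). Its genes did not all move alike: from P1 to P28, limma called 8 of them higher and 1 lower (adjusted p under 0.05), against 14.6% and 20.0% of all genes tested. The lower gene was Aldh1l1, whose promoter drives the reporter (log2 fold change -0.76, adjusted p = 0.0286). Mean Aldh1l1 counts were 5008 (P1), 1470 (P7), 1879 (P14) and 2921 (P28). Markers of other cells were present as well: the sum of 10 oligodendrocyte lineage markers ranged over 7319 to 11415 (P1), 20701 to 30322 (P7), 267500 to 339020 (P14) and 89678 to 126727 (P28). The sum of 8 endothelial and pericyte markers stood apart within its time point in P1 replicate 2 (5315, against 1719 and 1885 in the other P1 libraries) and in P7 replicate 2 (12048, against 3672 and 2773), and the calls lost without them are named with each gene. This sum ranged over 6836 to 7676 at P14 and 3773 to 5722 at P28, so that P1 replicate 2 was high for P1 only. The sum of 6 choroid plexus and ependyma markers stood apart in P14 replicate 3 (1034, against 109167 and 63584) and in P28 replicate 3 (17898, against 104915 and 182629), and it was 836 to 1836 at P1 and 47996 to 127391 at P7. In such bulk samples, fewer cells of a type and less RNA per cell cannot be told apart.

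Of the 3 consecutive steps, that from P7 to P14 had the most members called, with 4 of 10 lower and 0 higher. Ccnd2, Cdk4, Ccne1 and Cdkn2c were the 4 that fell (limma, Benjamini-Hochberg adjusted p under 0.05 over all genes tested, here and below), against 10.0% of all genes tested that were lower and 10.8% that were higher. No further member passed an unadjusted p of 0.05 as higher in this step, and edgeR and DESeq2 each called 0 higher, while they called 4 and 5 lower. Over all genes, both directions together, edgeR called 3055 of 15575 and DESeq2 3932 of 20050. A limma fit of these time points alone called 1 higher (Cdkn1a, 1.04, adjusted p = 0.00512) and 6 lower, and Ccnd3 was called higher without P14 replicate 3. The share of all genes called in those fits is not given here. The median log2 fold change was -1.52 over the members and -0.086 over all genes tested.

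From P1 to P7 only Ccnd3 was called, as lower, against 4.24% of genes lower and 3.47% higher. The count of members called higher was 0 by limma and by edgeR and 1 by DESeq2, and 1 member was higher at an unadjusted p under 0.05. In this step edgeR called 1093 of 15575 genes and DESeq2 1857 of 20050, both directions together. From P14 to P28 Ccnd3 rose, against 5.68% of genes, and Ccnd1 fell, against 8.76%. Over the whole span from P1 to P28, 6 members fell (Ccnd1, Ccnd2, Ccne1, Ccne2, Cdk4 and Cdk6) against 20.0% of all genes, and Cdkn1a rose, against 14.6%. In that comparison edgeR called 4 lower and 0 higher and DESeq2 5 lower and 0 higher. Over all genes, both directions together, edgeR called 4962 of 15575 and DESeq2 6041 of 20050. Without both vessel-rich libraries (P1 replicate 2 and P7 replicate 2, each high for its time point), an alternative added after the data were seen, 0 members were called from P1 to P7, 3 from P7 to P14, 2 from P14 to P28 and 6 from P1 to P28. The share of all genes called in that fit is not given here. Consecutive steps share the libraries of the time point between them and are therefore not independent. The median log2 fold change over the members, beside that over all genes tested, was 0.19 beside 0.037 from P1 to P7, -0.22 beside -0.12 from P14 to P28, and -1.71 beside -0.24 from P1 to P28.

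**Figure D1:**
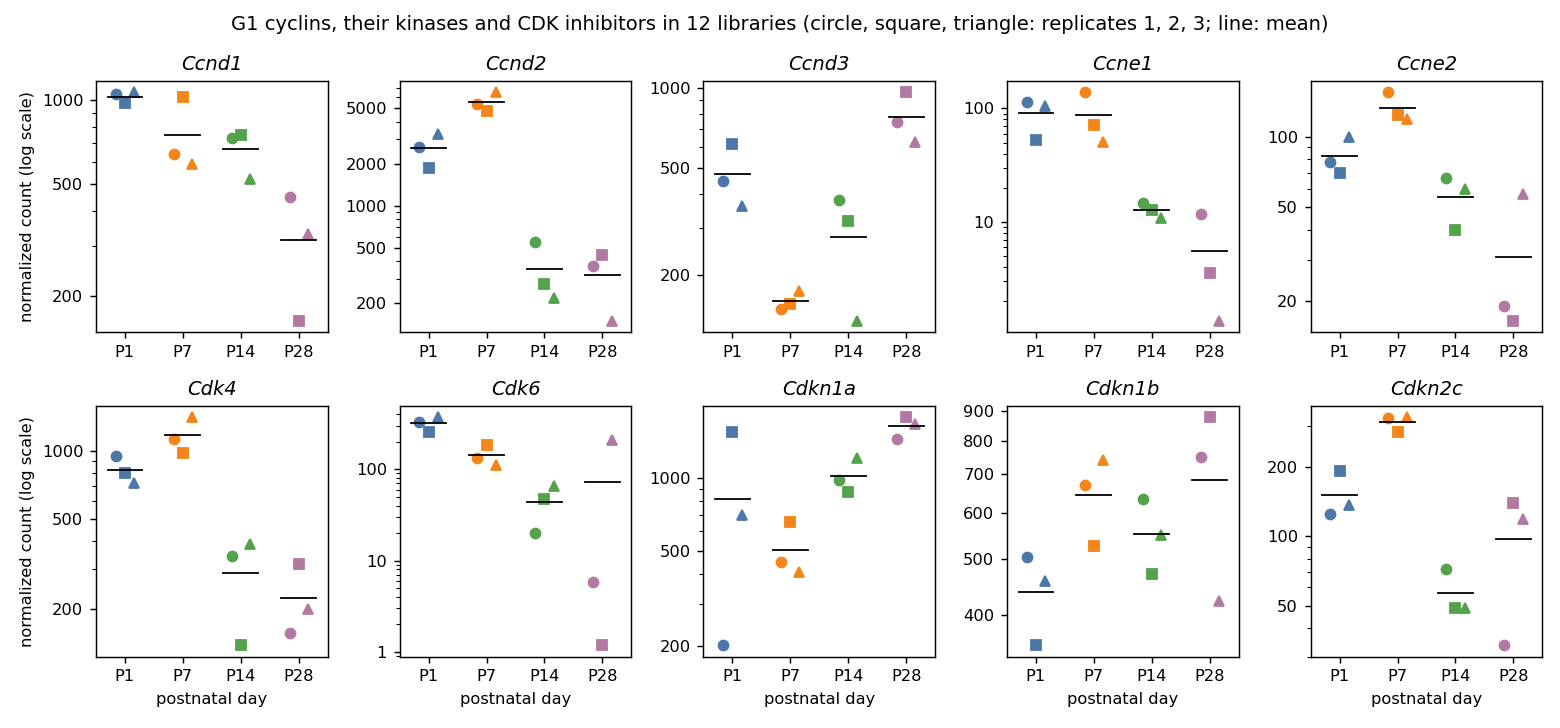
Normalized counts (vertical axis, log scale) of the 10 genes by postnatal day (horizontal axis), with one point per library, shaped by replicate number, and a line at the mean of 3. Ccnd2 peaked at P7 between 4759 and 6482 and lay between 150 and 552 at P14 and P28, whereas Cdkn1a at P28 lay between 1457 and 1790.

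Ccnd2 (chr6:127125162-127152193, minus strand, GRCm38), which encodes cyclin D2, had the largest fall of the 10 genes between P7 and P14. Its normalized counts were 2618, 1849 and 3248 at P1 and 5343, 4759 and 6482 at P7. They were 552, 276 and 220 at P14 and 368, 443 and 150 at P28. Every P7 library was above every P1 library, and no library of P14 or P28 reached the lowest P1 value. The means were 5528 ± 876 at P7 and 349 ± 177 at P14 (SD, n = 3), a 15.8-fold fall, with a log2 fold change of -4.08 (SE 0.39, adjusted p = 5.54e-06). The rise of 1.13 from P1 to P7 on the log2 scale missed the threshold (SE 0.39, adjusted p = 0.101). P28 was lower than P1 by a log2 fold change of -3.10 (SE 0.39, adjusted p = 3.32e-05), and the P14 and P28 libraries overlapped. The exons of Ccnd2 share 368 bases with 9330179D12Rik on the opposite strand, and the counting is not stated to use strand. That gene had a mean of 36.9 normalized counts at P7 and 5.37 at P14.

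Ccnd1 (chr7:144929931-144939925, minus strand), the gene of cyclin D1, declined over the series without the P7 peak. The libraries had normalized counts of 1044, 970 and 1061 at P1 and 640, 1020 and 592 at P7. They were 728, 749 and 522 at P14 and 450, 163 and 333 at P28. The P1 libraries lay close together, P7 replicate 2 was level with them, and all P28 libraries were below all others. P7 replicate 2 was also the library with the high endothelial and pericyte sum. It had the lowest astrocyte sum (28111, against 52448 and 48669) and GABAergic interneuron precursor sum (4418, against 8984 and 8709) of its group. Its proliferation sum was the highest (27727, against 20943 and 23170). Whether these bear on its Ccnd1 value was not tested. The step from P7 to P14 had a log2 fold change of -0.15 (SE 0.33, adjusted p = 0.813), and 0.10 without P7 replicate 2. Between P1 and P28 the log2 fold change was -1.82 (SE 0.33, adjusted p = 6.78e-04), a 3.25-fold fall of the mean from 1025 ± 48.6 to 315 ± 144 (SD, n = 3). From P14 to P28 it was -1.18 (SE 0.33, adjusted p = 0.0272), a call that was lost without P14 replicate 1 (0.0871), without P14 replicate 2 (0.0874) and without P28 replicate 2, the lowest library (log2 fold change -0.76, adjusted p = 0.0636). A limma fit of only P14 and P28 also lost the call.

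Ccnd3 (chr17:47505051-47599691, plus strand), which encodes cyclin D3, was lowest at P7, where Ccnd2 was highest, and highest at P28. Its normalized counts were 449, 617 and 363 at P1 and 149, 156 and 174 at P7. They were 381, 318 and 135 at P14 and 748, 961 and 629 at P28. The P7 libraries were all below the P1 libraries and the P28 libraries were above all others, whereas P14 replicate 3 was below every P7 library. Without that library the rise from P7 to P14 was 1.12 and called (adjusted p = 0.019), against 0.67 (SE 0.36, adjusted p = 0.22) with it. P14 replicate 3 also had the low choroid plexus and ependyma sum and the lowest astrocyte sum of its group (151398). Its oligodendrocyte lineage sum (339020) and granule neuron sum (24121) were the highest. The part of those cells was not tested. Ccnd3 rose from P14 to P28 by a log2 fold change of 1.59 (SE 0.36, adjusted p = 0.00997) and from P7 to P28 by 2.26 (SE 0.36, adjusted p = 2.00e-04). The fall from P1 to P7, with a log2 fold change of -1.54 (SE 0.36, adjusted p = 0.0159), was lost without P1 replicate 1 (0.0558), P1 replicate 2 (0.0875), P7 replicate 1 (0.0565) or P7 replicate 2 (0.056). Without both vessel-rich libraries it was -1.32 and not called. Its exons share 361 bases with Bysl on the opposite strand, which had means of 160, 131, 90.3 and 79.6 normalized counts from P1 to P28 and was not called in these comparisons. Over the 12 libraries, the genes with the most similar log2 values among 10212 compared were Ikbip (Pearson r = 0.964), Pdha1 (r = 0.949) and Gna13 (r = 0.944), as a description.

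Per kb of exon, an approximate scale for setting genes side by side, the D-type cyclin with the highest group mean changed with age. The length used was the union of all annotated exons of a gene (9.409 kb for Ccnd2, 8.775 kb for Ccnd3). It came from GENCODE, whereas the study's methods name UCSC transcripts for counting. Shares and ratios per kb, here and below, therefore depend on this choice of length. The summed level of the D-type cyclins was 545 ± 69.8 normalized counts per kb at P1 and 765 ± 60.9 at P7. It was 210 ± 54.9 at P14 and 190 ± 30.9 at P28 (SD, n = 3). Ccnd2 made up 49.5% ± 7.47 of this sum at P1 and 76.6% ± 7.36 at P7, and 17.2% ± 5.07 at P14 and 17.5% ± 7.29 at P28. Ccnd1 was the largest share at P14, with 68.4% ± 7.25. Ccnd3 had 2.38% ± 0.0224 at P7 and 47.1% ± 9.39 at P28, where its lowest library (38.8%) was above its highest at any other time point (16.9%). The Ccnd1 share at P28 ranged from 18.1% to 44.6% among the libraries. The order was not the same in every library of a group. At P28, Ccnd1 was above Ccnd3 in replicate 1 (95.6 against 85.3 per kb), near it in replicate 3 (70.6 against 71.7) and below it in replicate 2 (34.6 against 110). In P1 replicate 2, Ccnd1 was above Ccnd2 (206 against 197).

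**Figure D2:**
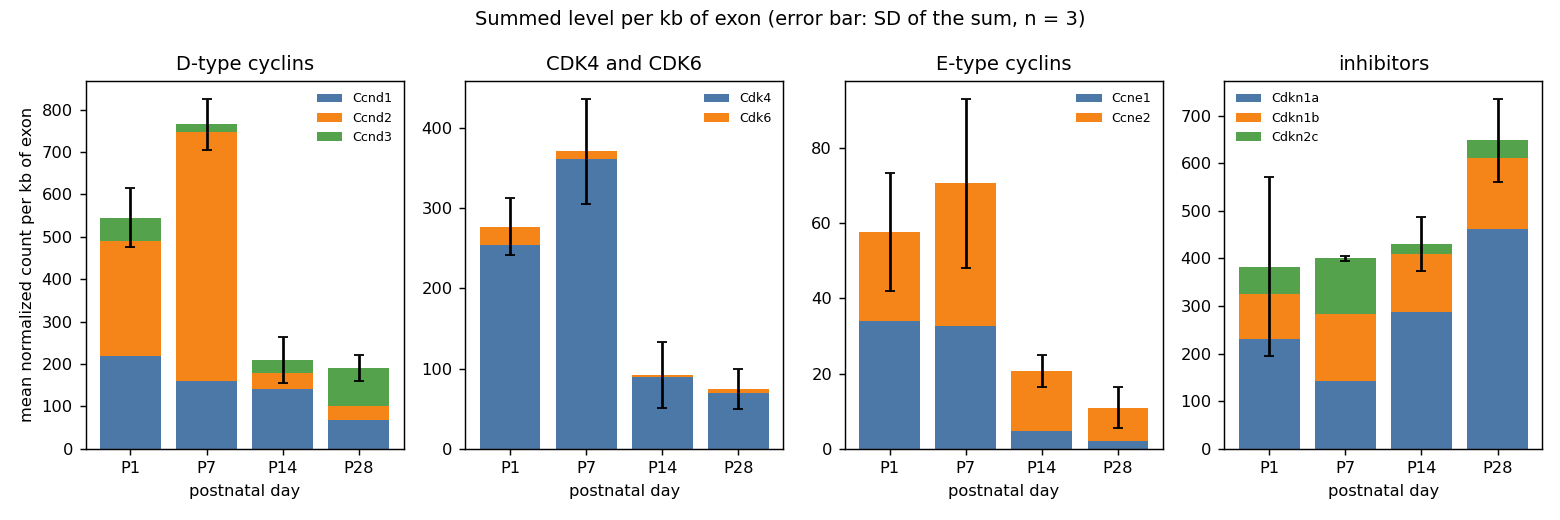
Mean normalized counts per kb of exon (vertical axis, linear from 0), stacked by gene for each family and postnatal day (horizontal axis), with the SD of the sum over 3 libraries as error bar. The D-type cyclin sum fell from 765 at P7 to 210 at P14, while the sum of the inhibitors Cdkn1a, Cdkn1b and Cdkn2c was 649 at P28.

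Cdk4 (chr10:127063534-127067920, plus strand), the main G1 kinase gene by level, fell in the same step as Ccnd2. The libraries had normalized counts of 954, 801 and 722 at P1 and 1131, 975 and 1412 at P7. They were 344, 138 and 386 at P14 and 156, 317 and 200 at P28. All P14 and P28 libraries were below all P1 and P7 libraries, and P14 and P28 overlapped. The difference between P1 and P7 was not called (log2 fold change 0.50, SE 0.36, adjusted p = 0.545). The log2 fold change from P7 to P14 was -2.13 (SE 0.36, adjusted p = 7.18e-04), a 4.06-fold fall of the mean from 1173 ± 222 to 289 ± 133 (SD, n = 3), and from P1 to P28 it was -1.93 (SE 0.36, adjusted p = 9.60e-04). Cdk4 exons share 641 bases, 19.7% of their length, with Tspan31 on the opposite strand, whose means of 494 and 611 normalized counts at P7 and P14 did not differ beyond the test (log2 fold change 0.31, adjusted p = 0.457).

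Promoter windows were read from RefSeq (GRCm38.p6), which had entries for 7 of the 10 members, with none for Ccnd1, Ccnd2 and Ccne2. The 250 bases before the start of Cdk4 are shown because this gene gave a fall that held under each setting tried, and because its window holds 4 matches of the E-box CACGTG, the letters bound by MYC family factors. Matches, in capitals, begin 172, 118, 98 and 11 bases before the start at chr10:127063285-127063534, plus strand. Among 32841 windows of the same length, 6.02% hold this motif at least once and 0.0609% at least 3 times.
Cdk4: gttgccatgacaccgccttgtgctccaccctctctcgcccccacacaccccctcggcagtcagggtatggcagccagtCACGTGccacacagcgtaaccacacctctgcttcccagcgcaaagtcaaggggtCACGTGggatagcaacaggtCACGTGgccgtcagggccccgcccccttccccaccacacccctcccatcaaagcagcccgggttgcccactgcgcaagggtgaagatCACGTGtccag

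Cdk6 (chr5:3341485-3531008, plus strand), the second D-cyclin kinase gene, was low and uneven at P28. Its normalized counts were 326, 258 and 373 at P1 and 133, 183 and 111 at P7. They were 20.1, 47.6 and 65.2 at P14 and 5.85, 1.18 and 211 at P28. Each time point up to P14 lay wholly below the one before, whereas P28 replicate 3 was above every P7 and P14 library. The P28 values stand for 4, 1 and 156 reads. From P1 to P28 the log2 fold change was -4.43 (SE 1.17, adjusted p = 0.00946), while the means of 319 ± 57.7 and 72.7 ± 120 (SD, n = 3) differed 4.39-fold. DESeq2 (-2.13, adjusted p = 0.177) and edgeR (-2.11, adjusted p = 0.14) did not call it, nor did a limma fit of only P1 and P28. Without P28 replicate 3 the limma value was -6.36 (adjusted p = 8.23e-06). Without that library the step from P14 to P28 was also called (-3.40, adjusted p = 0.0049), against -1.47 (SE 1.17, adjusted p = 0.43) with it. P28 replicate 3 had the highest endothelial and pericyte sum of its group (5722, against 3773 and 4572), the highest astrocyte sum (405842), the lowest oligodendrocyte lineage sum (89678) and the lowest choroid plexus and ependyma sum (17898, against 104915 and 182629), and their part in its Cdk6 value was not tested.

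Cdk4 made up 91.7% ± 2.05 of the summed Cdk4 and Cdk6 level per kb at P1 and 97.1% ± 1.21 at P7 (SD, n = 3). The share was 95.8% ± 3.07 at P14 and 93.1% ± 11.1 at P28, where the lowest library had 80.3%. The sum of both kinases was 371 ± 65.8 normalized counts per kb at P7 and 92.1 ± 41 at P14.

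Ccne1 (chr7:38097984-38107534, minus strand), the gene of cyclin E1, an activator of CDK2 at the entry into S phase, fell to a few reads a library by P28. The libraries had normalized counts of 114, 52.2 and 105 at P1 and 138, 72 and 50.4 at P7. They were 14.8, 12.7 and 10.9 at P14 and 11.7, 3.54 and 1.35 at P28. P1 and P7 overlapped, and all later libraries were below them. The P28 values together rest on 12 reads. The log2 fold change was -4.08 from P1 to P28 (SE 0.75, adjusted p = 8.16e-04) and -2.55 from P7 to P14 (SE 0.75, adjusted p = 0.0253). The latter was lost without P7 replicate 1 (-2.16, adjusted p = 0.132), P7 replicate 2 (0.0689), P14 replicate 2 (0.0603) or P14 replicate 3 (0.0647), and without both vessel-rich libraries (-2.62, adjusted p = 0.0853).

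The Ccne1 window (chr7:38107491-38107740, minus strand) is shown because E-type cyclins are known E2F targets, yet none of the 8-letter E2F motifs searched (TTTCCCGC, TTTGGCGC, TTTGCCGC and TTTCGCGC, both strands, present in 1.86% of windows) occurred in it or in any other member's window. It held 4 GC boxes (GGGCGG on either strand, in capitals). At least 1 GC box stood in 32.7% of all windows, and 8.47% held 3 or more.
Ccne1: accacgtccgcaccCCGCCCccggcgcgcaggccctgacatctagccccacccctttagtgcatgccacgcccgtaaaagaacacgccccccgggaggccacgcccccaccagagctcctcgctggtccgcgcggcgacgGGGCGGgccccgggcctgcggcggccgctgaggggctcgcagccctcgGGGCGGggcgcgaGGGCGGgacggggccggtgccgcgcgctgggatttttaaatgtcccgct

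Ccne2 (chr4:11191351-11204779, plus strand), which encodes cyclin E2, was highest on average at P7 and lowest at P28. Its normalized counts were 78.1, 70 and 99.2 at P1 and 154, 124 and 119 at P7. They were 66.7, 40.2 and 59.7 at P14 and 19, 16.5 and 56.8 at P28. Every P7 library was above every P1 library and every P14 library was below both, while P28 replicate 3 lay within the P14 range. Neither the rise from P1 to P7 (log2 fold change 0.69, SE 0.56, adjusted p = 0.61) nor the fall from P7 to P14 (-1.26, SE 0.56, adjusted p = 0.132) was called. Between P1 and P28 the log2 fold change was -1.60 (SE 0.56, adjusted p = 0.0382). That call was lost by edgeR (-1.39, adjusted p = 0.0725), without any 1 of the P1 or P7 libraries (adjusted p from 0.0589 to 0.122), and without P28 replicate 1 (0.0708) or replicate 2 (-1.28, adjusted p = 0.0818). A limma fit of only P1 and P28 also lost the call. Without both vessel-rich libraries the log2 fold change was -1.71 (adjusted p = 0.0996). Without P28 replicate 3 the step from P14 to P28 was called (-1.56, adjusted p = 0.0457), against -1.02 (adjusted p = 0.238) with it. Its exons share 609 bases, 17.4% of their length, with Ints8 on the opposite strand, which had means of 835 and 720 normalized counts at P1 and P28 (log2 fold change -0.20, adjusted p = 0.447).

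The summed E-type cyclin level per kb was 57.6 ± 15.6 normalized counts at P1 and 70.5 ± 22.5 at P7. It was 20.7 ± 4.21 at P14 and 10.9 ± 5.43 at P28 (SD, n = 3). Ccne1 made up 57.8% ± 8.18 of it at P1 and 23.7% ± 5.11 at P14. At P28 its share ranged from 3.03% to 44.7% among the libraries.

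Cdkn1a (chr17:29090976-29100727, plus strand), the gene of p21, was the 1 member called higher at P28 than at P1. The libraries had normalized counts of 202, 1553 and 701 at P1 and 447, 657 and 408 at P7. They were 977, 877 and 1215 at P14 and 1457, 1790 and 1677 at P28. From P7 on, each time point lay wholly above the one before, whereas P1 spanned a 7.67-fold range with replicate 2 inside the range of P28. P1 replicate 2 was also the P1 library with the high endothelial and pericyte sum and the highest p53 target sum (9530, against 7236 and 7939). It had the lowest sums of proliferation markers (8609, against 15679 and 15800), E2F-driven S phase genes (7383, against 10520 and 10049) and GABAergic interneuron precursor markers (1111, against 2241 and 3842). The part of these in its Cdkn1a value was not tested. From P7 to P28 the log2 fold change was 1.73 (SE 0.50, adjusted p = 0.0132), a 3.26-fold rise of the mean from 504 ± 134 to 1641 ± 170 (SD, n = 3). The rise from P1 to P28, 1.43 on the log2 scale (SE 0.50, adjusted p = 0.0373), depended on the P1 libraries: it was 2.11 without replicate 2 (adjusted p = 0.00162), 0.65 without replicate 1 (0.151) and 1.54 without replicate 3 (0.0642). The call was also lost without P14 replicate 1 (0.0515) or 2 (0.0517) and without P28 replicate 1 (0.0561), 2 (0.0807) or 3 (0.0692). DESeq2 (1.00, adjusted p = 0.0999) and edgeR (1.04, adjusted p = 0.103) did not call it, nor did limma scaled by library totals (1.00, adjusted p = 0.119). A limma fit of only P1 and P28 did not call it either, nor did limma with no filter on low values.

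The first of 2 Cdkn1a windows (chr17:29090729-29090978, plus strand) is shown because p21 is the best known target of p53. Capitals mark 1 match of the p53 element, here 2 adjoining half-sites over 20 letters with at most 1 letter off the consensus, beginning 51 bases before the start. This form was set after the sequence had been read. The form searched first, 2 exact half-sites with 0 to 13 bases between them, also had 1 match in the window, overlapping this one. The forms occur in 0.0761% and 0.0639% of the 32841 windows, and neither occurred in the other Cdkn1a window.
Cdkn1a: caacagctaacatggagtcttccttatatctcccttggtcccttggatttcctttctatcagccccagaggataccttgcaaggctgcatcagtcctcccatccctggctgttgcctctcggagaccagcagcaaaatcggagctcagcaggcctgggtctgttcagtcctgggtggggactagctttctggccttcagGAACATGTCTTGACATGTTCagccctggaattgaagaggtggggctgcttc

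Cdkn1b (chr6:134920401-134925513, plus strand), the gene of p27, was not called in any comparison. Its normalized counts were 504, 354 and 458 at P1 and 670, 526 and 741 at P7. They were 634, 471 and 550 at P14 and 751, 879 and 423 at P28. All P7 libraries were above all P1 libraries, and the other neighbouring time points overlapped. The log2 fold change from P1 to P28 was 0.59 (SE 0.28, adjusted p = 0.111), and without P28 replicate 3, the lowest of its group, it was 0.90 and called (adjusted p = 0.0105).

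Cdkn2c (chr4:109660876-109667189, minus strand), the gene of p18, had its highest mean at P7, as did Ccnd2 and Cdk4. Its rise from P1 to P7 was not called (log2 fold change 1.06, SE 0.50, adjusted p = 0.269). The libraries had normalized counts of 125, 191 and 137 at P1 and 325, 283 and 329 at P7. They were 72, 48.7 and 48.9 at P14 and 33.6, 140 and 119 at P28. The P7 libraries were above all others and the P14 libraries below all of P1 and P7, while P28 spread from below the P14 range into the P1 range. From P7 to P14 the log2 fold change was -2.47 (SE 0.50, adjusted p = 0.00283), a 5.53-fold fall of the mean from 312 ± 25.8 to 56.5 ± 13.4 (SD, n = 3). The difference between P1 and P28 was not called (log2 fold change -0.84, SE 0.50, adjusted p = 0.214).

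The GC-rich window of Cdkn2c (chr4:109666757-109667006, minus strand) is shown as the 1 member window with the shorter E2F core (TTCCCGC or TTGGCGC, both strands), which is contained in TTTCCCGC and TTTGGCGC above. Its match, in capitals, begins 25 bases before the start, and 5.61% of all windows hold this core. The other Cdkn2c window had no match.
Cdkn2c: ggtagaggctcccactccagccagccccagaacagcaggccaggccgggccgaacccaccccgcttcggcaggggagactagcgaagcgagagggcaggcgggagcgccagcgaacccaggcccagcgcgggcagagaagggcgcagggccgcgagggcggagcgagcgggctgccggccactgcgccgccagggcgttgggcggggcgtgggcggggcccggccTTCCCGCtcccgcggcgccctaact

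Set side by side per kb, the summed inhibitors of the set (Cdkn1a, Cdkn1b and Cdkn2c) reached 383 ± 188 normalized counts at P1 and 400 ± 5.91 at P7. They reached 430 ± 57.1 at P14 and 649 ± 87.7 at P28 (SD, n = 3). Cdkn1a made up 35.4% ± 8.97 of this sum at P7 and 71.5% ± 5.31 at P28, and Cdkn2c 29.1% ± 2.73 and 5.46% ± 2.89. The ratio of summed inhibitors to summed D-type cyclins was 0.733 ± 0.448 at P1 and 0.525 ± 0.0392 at P7. It was 2.19 ± 0.886 at P14 and 3.48 ± 0.701 at P28. Inhibitor genes outside the set are not in this sum, and they did not all rise. Cdkn1c, the gene of p57, fell from a mean of 438 normalized counts at P1 to 65.1 at P28 (limma log2 fold change -3.22, adjusted p = 0.00161). Cdkn2d rose from 98.7 to 272 (1.45, adjusted p = 0.00439).

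**Figure D3:**
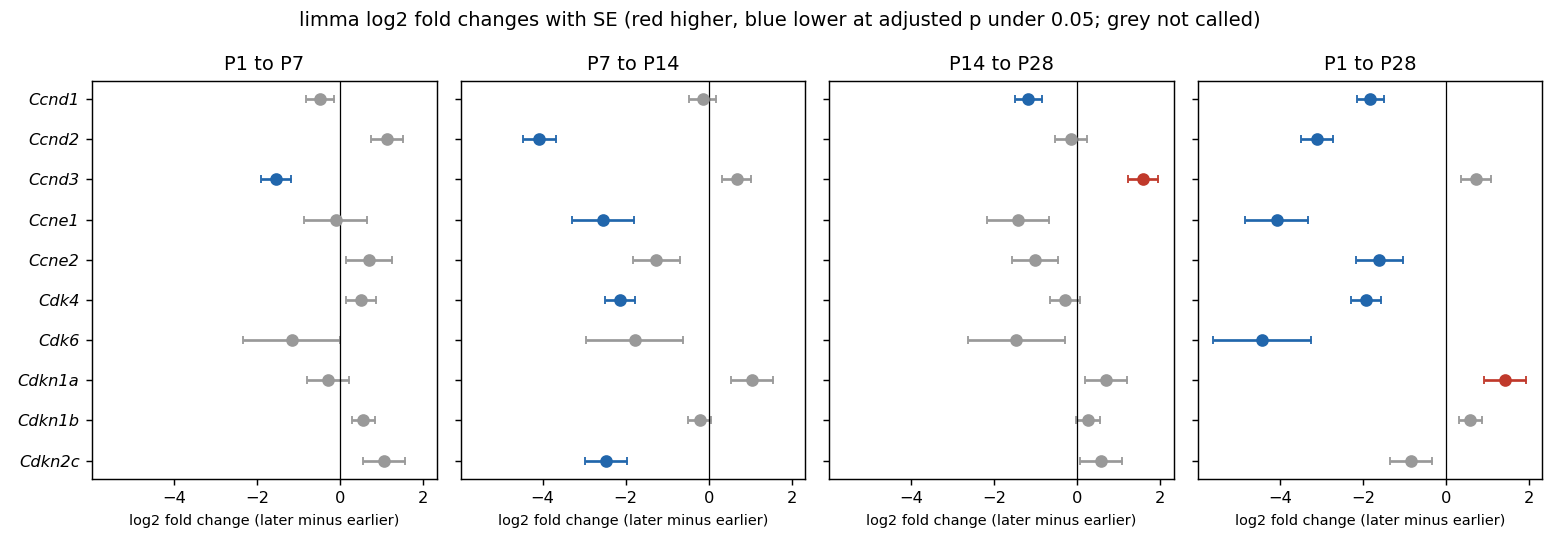
limma log2 fold changes (horizontal axis, later minus earlier time point) with their SE for the 10 genes in 4 comparisons, in red or blue where the adjusted p was under 0.05 and in grey where it was not. The blue points from P7 to P14 are Ccnd2, Ccne1, Cdk4 and Cdkn2c, and Cdk6 has the widest error of the members (SE 1.17).

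The wider G1/S network, 38 other genes of this pathway of which 37 were tested, had called genes in both directions in all steps but the first. Cdkn2a, the gene of the CDK inhibitor p16 and of the ARF protein, was at 0 in all 12 libraries. From P1 to P7, 1 gene of the list rose and 0 fell, against 3.47% and 4.24% of all genes, the former being Tfdp2, an E2F partner (log2 fold change 1.13, adjusted p = 0.0242). At an unadjusted p under 0.05, 3 were lower in this step, and edgeR and DESeq2 each called 0 lower. From P7 to P14, 10 of the 37 fell, against 10.0% of all genes, and 1 rose, against 10.8%. The largest falls were those of Mybl2, a mitotic gene activator (log2 fold change -4.88, adjusted p = 0.0134), Mycn, a driver of granule precursor division (-4.22, adjusted p = 0.00337), and Rbl1, a relative of the retinoblastoma gene (-2.42, adjusted p = 0.0018). Mybl2 had 0 to 20.1 normalized counts in the P14 libraries, so the size of its fall rests on few reads. The rise was that of E2f6, a repressor (0.75, adjusted p = 0.0484).

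From P14 to P28, 3 genes of the network rose and 3 fell, against 5.68% and 8.76% of all genes. Those that rose were Lin52 (1.20, adjusted p = 0.0282), Cdkn2d, the inhibitor related to Cdkn2c (1.19, adjusted p = 0.031), and Rb1 (0.52, adjusted p = 0.0453). Those that fell were E2f7 (adjusted p = 0.0308, with 2 P28 libraries at 0), Mybl1 (-1.84, adjusted p = 0.00806) and E2f2, which had 0 reads at P28 and was at least 3.85-fold lower (against 3 reads in each P28 library). From P1 to P28, 5 of the 37 rose and 11 fell, against 14.6% and 20.0% of all genes, while edgeR called 5 higher and 9 lower and DESeq2 6 and 10. Cdkn2d had a mean of 98.7 ± 2.53 normalized counts at P1 and 272 ± 27.4 at P28 (SD, n = 3; log2 fold change 1.45, adjusted p = 0.00439), and Lin52 (1.30, adjusted p = 0.00819) and Rb1 (0.89, adjusted p = 8.22e-04) rose as well. E2f7 fell from a mean of 339 normalized counts at P1 to 0, 0 and 50.7 in the P28 libraries (adjusted p = 4.67e-04), and the last value lies within its P14 range of 33.7 to 80.5. E2f2 was at least 6.05-fold lower. E2f8 fell (-4.66, adjusted p = 0.0151), although 1 of the P28 libraries had 256 normalized counts, against 1.18 and 1.35 in the others.

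Of 20 E2F-driven S phase genes, 0 rose and 17 fell from P7 to P14, against 10.8% and 10.0% of all genes, with a median log2 fold change of -2.58, beside -0.086 over all genes. Ccna2, the S phase cyclin (-4.62, adjusted p = 5.25e-04), Gins1 (-4.48, adjusted p = 0.00949) and Cdt1, a licensing factor (-4.03, adjusted p = 0.00212), fell most. At P14, Gins1 had 3.18 to 10.9 normalized counts and Cdt1 3.17 to 23.3, so the sizes of these 2 falls rest on few reads. From P14 to P28, 6 of the 20 fell, against 8.76% of all genes. Among these, Ccna2 fell by 3.83 on the log2 scale (adjusted p = 0.00509), to between 0 and 19 normalized counts at P28. Mcm5 and Cdc45 each had 2 reads in all at P28, from means of 47.8 and 52.8 normalized counts at P14. Between P1 and P28, 17 fell, against 20.0%, among them Ccna2 (-7.78, adjusted p = 3.09e-06). From P1 to P7, 0 were called in either direction by limma, edgeR or DESeq2, with 1 higher and 0 lower at an unadjusted p under 0.05. No gene of this list was called higher in any comparison by limma or edgeR, while DESeq2 called 2 higher from P14 to P28, where 2 were higher at an unadjusted p under 0.05.

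Of 16 p53 target genes, 15 were tested, with calls in both directions. From P1 to P7, 0 were called by limma and edgeR and 1, as lower, by DESeq2, with 2 lower at an unadjusted p under 0.05. From P7 to P14, 3 rose, namely Fas (3.35, adjusted p = 0.04), Phlda3 (3.02, adjusted p = 0.00351) and Sesn1 (0.96, adjusted p = 0.011), and Trp53inp1 fell (-1.10, adjusted p = 0.0137), against 10.8% of all genes higher and 10.0% lower. Fas started from 1.31 to 5.57 normalized counts at P7, so the size of its rise rests on few reads. From P14 to P28, Phlda3 (-2.72, adjusted p = 0.0127) and Btg2 (-1.03, adjusted p = 0.007) fell, against 8.76% of all genes, and 0 rose, also by edgeR, DESeq2 and at an unadjusted p under 0.05. From P1 to P28, Sesn1 rose (1.00, adjusted p = 0.00558) and 4 of the 15 fell, against 14.6% and 20.0% of all genes, while edgeR called 2 lower and DESeq2 3. Among the 4, Btg2 fell by 1.34 on the log2 scale (adjusted p = 2.80e-04). Gtse1 (adjusted p = 0.00799) had P28 values of 0, 2.92 and 66 normalized counts, and Eda2r (adjusted p = 0.0167) had 0, 1.35 and 73.1, the last within its P1 range of 57.9 to 131. The list had a median log2 fold change of -0.30. Trp53, the gene of p53 itself, fell from P7 to P14 (-1.48, adjusted p = 0.0338) and from P1 to P28 (-2.23, adjusted p = 0.00202). The part of p53 in the course of Cdkn1a was not tested.

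Cell markers moved beside the members. From P7 to P14, the step for which marker calls are given here, 10.8% of all genes tested were higher and 10.0% lower. The sum of 10 proliferation markers ranged over 8609 to 15800 normalized counts (P1), 20943 to 27727 (P7), 665 to 1291 (P14) and 32.5 to 113 (P28), and all 10 fell from P7 to P14. Cdk1, the mitotic kinase gene among them, had 0 reads in all P28 libraries. The sum of 8 GABAergic interneuron precursor markers ranged over 1111 to 3842 (P1), 4418 to 8984 (P7), 472 to 703 (P14) and 444 to 1144 (P28), and 7 of the 8 fell from P7 to P14. The sum of 10 granule neuron markers ranged over 4841 to 6448 (P1), 15960 to 18061 (P7), 13823 to 24121 (P14) and 11206 to 12328 (P28), and from P7 to P14, 3 of its genes rose and 2 fell. Those that rose were genes of maturing granule neurons, Cbln3 (6.57, adjusted p = 5.51e-08), Gabra6 (6.06, adjusted p = 3.96e-06) and Rbfox3 (0.79, adjusted p = 0.0461). Those that fell were Mfap4 (-2.08, adjusted p = 0.00372) and Atoh1, which defines granule precursors and was at 30.3 to 45 at P7 and 0 in all libraries of P14 and P28. The sum of 8 microglia markers lay between 955 and 3855 over the 12 libraries. The part of these cells in the course of Ccnd2, Cdk4 and Cdkn2c was not tested.

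**Figure D4:**
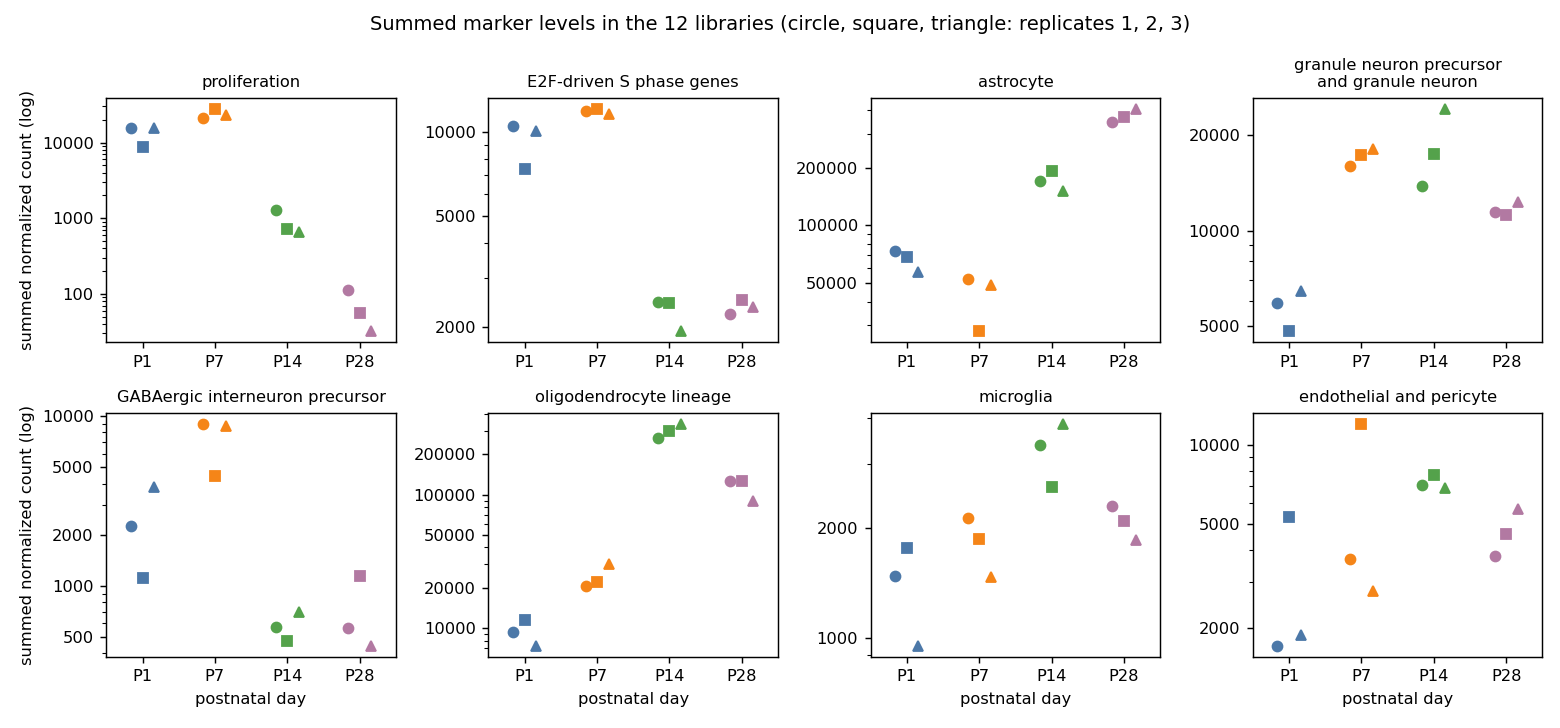
Summed normalized counts (vertical axis, log scale) of 8 gene lists by postnatal day (horizontal axis), with one point per library shaped by replicate number. Proliferation markers fell from 20943 to 27727 at P7 to between 665 and 1291 at P14, and P7 replicate 2 stands apart in the endothelial and pericyte list at 12048.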

How the data were processed

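RNA of sorted cells was sequenced in 12 libraries, grouped by the age in the labels. All column names of the table carry P28 whatever the age, and columns were matched through the names given in the labels. The authors aligned reads with STAR 2.5.0a to mm10 and normalized gene counts with DESeq2 (1.30.1 in the submitters' processing notes, an older version in the study's methods), and the treatment of strand and of shared reads is not given in the sources used here. The deposited values are a signal, the reads of a gene divided by one size factor per library, which follows from the values: 100% of them gave whole reads (tolerance 0.01 of a read). Depth, floors and count tests used these reads, and intervals or floors cover counting error only. With 6399499 to 14733985 reads a library, a gene with few reads has low precision.

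The test was limma 3.58.1, run in R 4.3.3 on log2(value + 1), with a variance trend and one mean per time point, over all 12 libraries and the 15464 genes with at least 10 normalized counts in at least 3 libraries. The added 1 shrinks fold changes of genes with low values, and where the libraries of a group differ widely a difference of mean logs can exceed the log of the ratio of means, as for Cdk6. Calls had a Benjamini-Hochberg adjusted p under 0.05. edgeR 4.0.16 and DESeq2 1.42.0 on the recovered reads, other scalings, pseudocounts and filters, and the omission of each library were alternatives. The scripts were tested on simulated data. The libraries of a group differed by more than sampling noise, and none was counted as a repeat. Members and gene lists were chosen with earlier results of these data known, and the lists hold common markers of each cell type and pathway.

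All members are named with their value in every library. For the pathway lists, counts in each direction and up to 3 called genes a direction with the largest log2 fold change are named. For a member called in at least 2 consecutive steps, the 3 genes (mean of at least 100) with the highest Pearson correlation are named. Exon positions came from GENCODE M21 on GRCm38, the build also called mm10, and promoters from RefSeq, with motifs chosen once the sequences were known.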

Additional observations from a re-analysis of the deposited data

How the results depend on the processing

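The calls of Ccnd2 and Cdk4 (P7 to P14 and P1 to P28), Cdkn2c (P7 to P14), Ccnd3 (P14 to P28) and Ccnd1 and Ccne1 (P1 to P28) held under each alternative that gave a value, but a filter of at least 10 in every library left out Ccne1 and Cdk6. The number of members called from P1 to P7, 1 in the report, was 2 with DESeq2, 4 when only the time points compared were fitted, 2 at an unadjusted p under 0.05 with a log2 fold change over 0.75, and 0 without both vessel-rich libraries, an alternative chosen after seeing the data, and it ranged from 0 to 2 when 1 library was left out. From P7 to P14 the count of 4 became 7 when only those time points were fitted. From P14 to P28 the count of 2 became 1 in that fit and ranged from 1 to 4 when 1 library was left out. From P1 to P28 the count of 7 became 4 with edgeR and 4 with only those time points. These counts stand without the share of all genes called in the same fit, and the causes of the shifts were not tested.

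Signs turned for values that were not called. With 1 library left out, the log2 fold change of Ccnd1 from P7 to P14 ranged from -0.30 to 0.10 (0.10 without both vessel-rich libraries), of Ccnd2 from P14 to P28 from -0.45 to 0.32, of Ccne1 from P1 to P7 from -0.50 to 0.21 and of Cdkn1a from P1 to P7 from -1.08 to 0.39 (0.18 without both vessel-rich libraries). Cdk6 from P14 to P28 was 0.71 with DESeq2 and 0.70 with edgeR. Scaling by library totals shifted the median over all genes, on the log2 scale, from -0.24 to -0.67 between P1 and P28 and from -0.09 to -0.34 between P7 and P14.

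Libraries of different ages share replicate numbers, but same-numbered libraries deviated together only weakly (r from -0.029 to 0.139), so the numbers were not taken as pairs. With a replicate block the counts were 1, 4, 2 and 7, and no call of a member changed.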
